A study of Mus musculus with 24 samples.

Results

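The comparison described here set mouse embryonic stem cell lines that carry a doxycycline-inducible Firre transgene against control lines without it, at 90 and 120 min after doxycycline, by ATAC-seq. It held the 4 libraries titled as Firre-induced and the 4 titled as control at these times, 8 of the 23 libraries analysed and of the 24 described. Each transgenic library was paired with the control library of the same background and time, which gave 4 pairs. In the knockout background the control line was labelled Firre KO and the transgenic line Firre KO with the inducible transgene. In the wild type background the control was labelled WT and the transgenic line carried the inducible transgene beside the endogenous gene. All 4 lines were treated with doxycycline, cultured with LIF, the MEK inhibitor PD0325901 and the GSK3 inhibitor CHIR99021, and had 1 library per time. Each line stood for its genotype alone, so genotype cannot be told apart from differences between lines. The p-values measure the spread between these libraries, taken for a typical peak mostly from other peaks of similar abundance.

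Firre is an X-linked long noncoding RNA that stays in the nucleus, binds the matrix protein HNRNPU through repeated sequence in its exons and is known for contacts between its own locus and other chromosomes. ATAC-seq uses a transposase that cuts open DNA, so the count in a peak reports how accessible that stretch of chromatin is. Promoters with many CpG dinucleotides are open in most cells, whereas peaks in introns and between genes often mark enhancers.

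In the mean over the 4 pairs, 22 of 129515 tested peaks differed, 19 higher and 3 lower in the transgenic lines (edgeR's quasi-likelihood test, Benjamini-Hochberg adjusted p of 0.05 or less). These are 0.0147% of tested peaks called higher and 0.00232% called lower. At an unadjusted edgeR p under 0.05 there were 7251 peaks, 5.6% of those tested. The largest called difference was in an intron of Rapgef4, which encodes a cAMP-activated exchange factor for Rap GTPases, at 3.91 times the control level. It was followed in strength of evidence by an intron of Pde6d, a chaperone of prenylated proteins, and by the promoter of Adgrg1, an adhesion G protein-coupled receptor. Peaks near Src, Tead1, Dpf2, Bbs4 and Apod were also higher. Apart from Firre itself, Adgrg1 was the only promoter among the 22.

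The promoter sequences below are those of RefSeq (build GRCm38.p6) that lay wholly inside a called peak of a promoter the results turn on. Each runs from 250 bases before the annotated start to 50 bases after it, 5′ to 3′ on the gene's strand. Adgrg1 (chr8:94984149-94984448, plus strand) and Firre (chrX:50635272-50635571, minus strand) were called in the mean of both backgrounds. Btaf1 (chr19:36925829-36926128, plus strand) and Agfg1 (chr1:82839210-82839509, plus strand) were called in the wild type background. Capitals mark matches, on either strand, to the GC box motif GGGCGG, the TATA box motif TATAAA, the CCAAT box, spelled by its name, and the E box motif CACGTG. The matches in these windows do not overlap.
Adgrg1: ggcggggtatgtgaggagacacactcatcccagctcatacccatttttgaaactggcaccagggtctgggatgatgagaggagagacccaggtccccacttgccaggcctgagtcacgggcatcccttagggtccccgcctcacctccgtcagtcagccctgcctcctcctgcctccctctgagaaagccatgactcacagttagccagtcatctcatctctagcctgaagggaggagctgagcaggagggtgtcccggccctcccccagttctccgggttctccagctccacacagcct
Firre: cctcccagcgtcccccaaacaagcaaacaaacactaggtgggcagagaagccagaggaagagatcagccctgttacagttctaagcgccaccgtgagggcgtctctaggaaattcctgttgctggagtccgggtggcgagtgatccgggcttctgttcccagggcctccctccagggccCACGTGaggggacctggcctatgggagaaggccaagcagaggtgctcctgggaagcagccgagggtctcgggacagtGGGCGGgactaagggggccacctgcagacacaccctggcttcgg
Btaf1: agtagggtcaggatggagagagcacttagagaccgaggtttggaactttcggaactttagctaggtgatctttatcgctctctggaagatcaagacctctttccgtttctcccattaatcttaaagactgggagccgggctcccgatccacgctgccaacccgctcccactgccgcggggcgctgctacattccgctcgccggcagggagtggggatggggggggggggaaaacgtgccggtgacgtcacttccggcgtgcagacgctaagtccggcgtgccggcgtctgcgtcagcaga
Agfg1: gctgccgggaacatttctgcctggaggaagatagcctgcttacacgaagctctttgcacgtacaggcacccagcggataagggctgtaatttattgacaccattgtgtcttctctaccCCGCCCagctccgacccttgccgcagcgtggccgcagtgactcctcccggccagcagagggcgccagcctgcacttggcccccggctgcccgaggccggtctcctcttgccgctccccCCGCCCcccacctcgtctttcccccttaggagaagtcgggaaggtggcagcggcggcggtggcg

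The Adgrg1 window held 0 matches to the 4 motifs, and the Btaf1 window held 0 as well. The Firre window held 1 GGGCGG and 1 CACGTG, and the Agfg1 window held 2 GGGCGG matches. Over the 32851 promoter windows of the table, 35.7% held GGGCGG, 13.6% TATAAA, 37.4% CCAAT and 7.15% CACGTG. The Adgrg1 window had 6 CpG dinucleotides, near the median of 7 over all windows, and a GC content of 60.7% against a median of 52.7%. Btaf1 and Agfg1 were richer in CpG, with 25 and 22, and Firre had 12. Over the 13174 windows inside tested promoter peaks the medians were 21 CpG and a GC content of 62.0%, both above the Adgrg1 values.

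Total counts in peaks of the 8 libraries ran from 6972263 to 14977148, and the highest total was that of the wild type transgenic library at 90 min. Levels are given as CPM, counts in proportion to the TMM-scaled library size. With 0 counts in a peak, a level of up to 0.199 to 0.425 CPM remains possible, depending on the library. This limit corresponds to 3 counts and reflects counting error alone. The share of counts in mitochondrial peaks was 4.20% to 5.62%. Promoter peaks of Pou5f1, Sox2 and Nanog, which define embryonic stem cells, were open in all 8 libraries. None of the 8 genes listed for the 2-cell-like state had a tested promoter peak. Among markers of other cells, 9 of 12 fibroblast genes and 14 of 16 germ layer and trophoblast genes had one. Open promoters therefore do not tell these cell types apart here.

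Firre was examined first, since it is the deleted gene and the gene of the transgene. Over 17 peaks in the body of Firre the summed level was 0.380 and 0.333 CPM in the knockout control at 90 and 120 min, and 0.775 and 1.27 CPM in the knockout transgenic line. The wild type control had 74.3 and 88.3 CPM there, and the wild type transgenic line 85.1 and 77.8 CPM. The endogenous gene body was thus nearly without counts in both knockout lines, and the wild type lines overlapped. In these 17 peaks 0 differences were called in the wild type background. The knockout background had 0 as well, but its control and transgenic lines held only 6 and 16 counts over all 17 peaks. Such counts could hardly have given a call, so no conclusion is drawn from the knockout background here.

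A peak over exon 18 of 20 of Firre (chrX:50569280-50570236) behaved otherwise. In the wild type background it stood at 31.2 and 25.5 CPM in the transgenic line at 90 and 120 min against 1.35 and 2.13 CPM in the control. The knockout lines had 17.9 and 15.3 CPM against 4.18 and 8.88 CPM. Transgenic and control libraries did not overlap. The difference was 4.05 ± 0.21 (log2, SE) in the wild type background (edgeR adjusted p = 7.03e-81) and 1.32 ± 0.17 in the knockout background (edgeR adjusted p = 7.08e-10). The difference between the backgrounds was itself called, at 2.73 ± 0.32 more in the wild type background (edgeR adjusted p = 3.92e-13). The fit of the mean over 4 pairs treats this disagreement as error and did not call the peak, at 2.39 ± 0.66 (edgeR adjusted p = 0.855). At 0 min the transgenic and control lines already stood at 13.0 and 2.29 CPM with the endogenous gene, and at 12.7 and 8.24 CPM in the knockout lines. Over all times the knockout control ran from 4.18 to 9.60 CPM and the wild type control from 1.35 to 2.72 CPM. These counts cannot tell reads of a transgene copy of this exon from reads of the chromosome X locus, and their origin was not tested.

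The peak at the start of Firre (chrX:50634917-50635918), whose sequence is given above, was at 14.2 and 14.8 CPM in the wild type transgenic line at 90 and 120 min and at 9.85 and 9.07 CPM in its control. The knockout lines were at 2.32 and 2.55 CPM against 0.253 and 0.777 CPM. The mean difference was 0.77 ± 0.16 (edgeR adjusted p = 0.0169). The 4 transgenic and 4 control libraries overlapped, because the wild type control was above the knockout transgenic line. This difference was present before doxycycline, with 13.0 against 9.46 CPM and 2.30 against 0.676 CPM at 0 min. It was not called with total counts as the scaling, with DESeq2, with all libraries in the fit, with limma-voom, when any of the 4 knockout libraries or a wild type library of 120 min was left out, or with the 90 min libraries left out.

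The 4 transgenic libraries lay wholly above, or wholly below, the 4 controls in 16 of the 22 called peaks, against 2.53% of all tested peaks. The test that chose these peaks used the same libraries, so this count is a description. The Rapgef4 peak lies in intron 1 of 5 (chr2:71983023-71984048), 16257 bp from the nearest annotated start, that of the small nucleolar RNA gene Gm26408. It had 16.4 and 14.1 CPM in the knockout transgenic line at 90 and 120 min and 13.7 and 13.0 CPM in the wild type transgenic line. The controls had 4.05 and 4.22 CPM in the knockout and 2.96 and 3.40 CPM in the wild type background. All 4 transgenic libraries were thus above 3 times any control library's level in their own background. The means were 14.3 ± 1.46 and 3.66 ± 0.586 CPM (SD, n = 4), and the difference was 1.97 ± 0.15 (log2, SE; edgeR adjusted p = 4.86e-24).

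The Pde6d peak lies in intron 1 of 3 (chr1:86549363-86551159), 23524 bp from the nearest start, that of Ptma, which encodes the chromatin-associated protein prothymosin alpha. It stood at 19.5 and 21.8 CPM in the knockout transgenic line and at 17.3 and 15.7 CPM in the wild type transgenic line. Controls stood at 7.98 and 8.77 CPM and at 8.62 and 9.07 CPM, in the same order. The controls differed little among themselves, at 8.61 ± 0.460 CPM (SD, n = 4), and each transgenic library was above all of them. The difference was 1.11 ± 0.12 (edgeR adjusted p = 1.21e-12).

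The Adgrg1 promoter peak (chr8:94983801-94984931) stood at 8.26 and 11.7 CPM in the knockout transgenic line and at 5.76 and 8.25 CPM in the wild type transgenic line. Its controls stood at 3.67 and 3.00 CPM and at 2.09 and 3.97 CPM. The groups did not overlap, and in both transgenic lines the library of 120 min was above that of 90 min. The difference was 1.43 ± 0.17 (edgeR adjusted p = 7.28e-10). Rapgef4, Pde6d and Adgrg1 were the 3 peaks that DESeq2 called as well, and their mean difference was called under every alternative tried. In the fit by background with the promoter share of each library as a covariate, the Adgrg1 value of the knockout background was -0.25. Within a background this share nearly follows the transgene, so that value cannot be read as an adjusted difference.

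**Figure D1:**
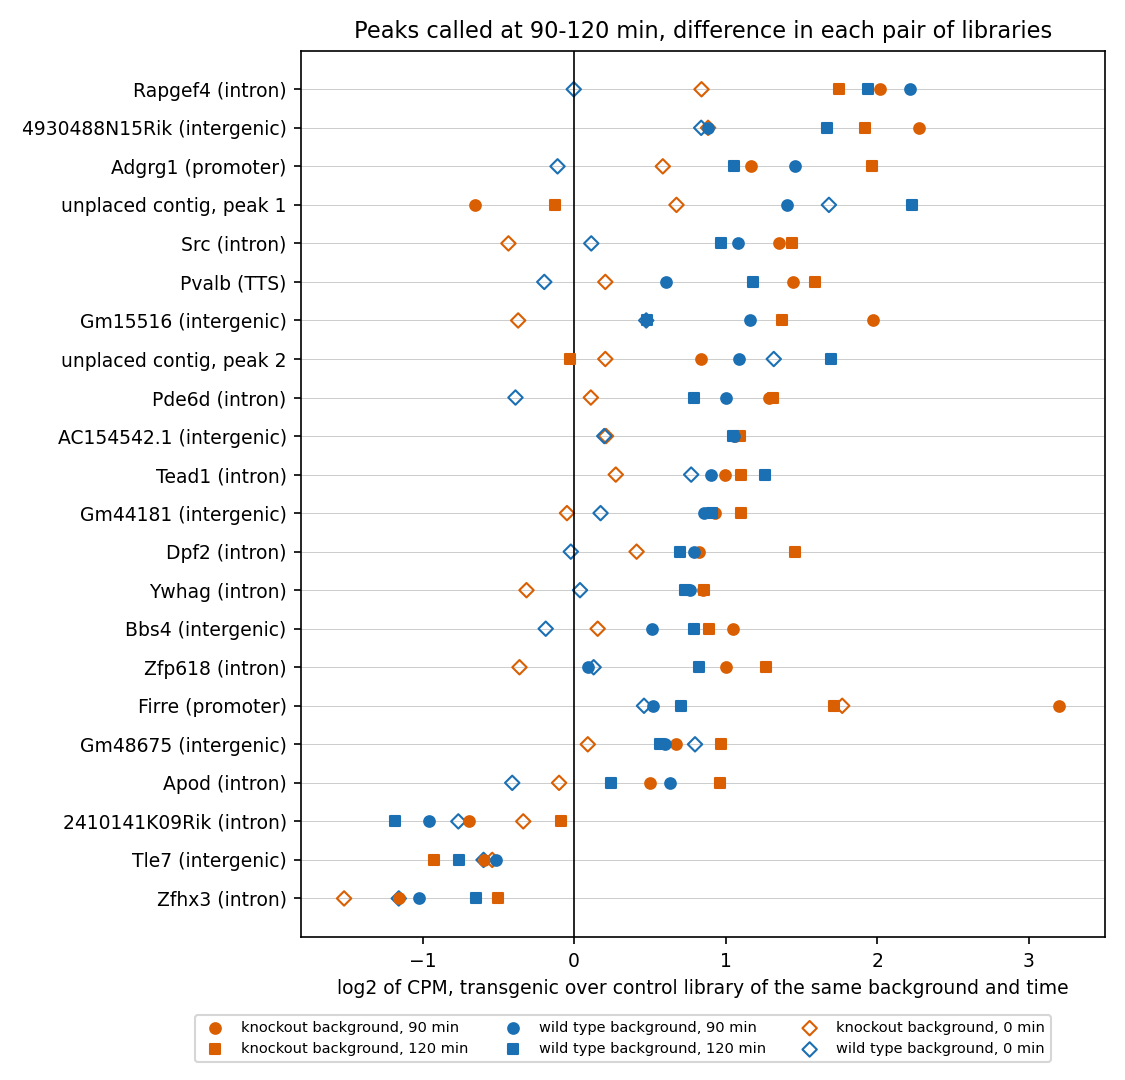
Difference of each pair of libraries (x axis, log2 of CPM of the transgenic over the control library) for the 22 called peaks (y axis), with filled symbols for the 4 pairs at 90 and 120 min and open diamonds for the 2 pairs at 0 min. Orange is the knockout and blue the wild type background. The filled symbols of Rapgef4 lie near 2, and both peaks of an unplaced contig lie above 1 in the wild type pairs.

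Other introns carried smaller differences. The Src intron peak, in the gene of a membrane-bound tyrosine kinase (chr2:157447563-157448418), ran from 3.23 to 4.20 CPM in the transgenic and from 1.27 to 1.72 CPM in the control libraries, a difference of 1.20 ± 0.25 (edgeR adjusted p = 0.0162). The Tead1 intron peak (chr7:112723498-112724666), in the gene of a transcription factor of the Hippo pathway, ran from 5.55 to 7.13 against 2.79 to 3.33 CPM, a difference of 1.05 ± 0.18 (edgeR adjusted p = 4.37e-04). The Dpf2 intron peak (chr19:5909344-5910085), in the gene of a subunit of the BAF chromatin remodeller, ran from 5.05 to 7.01 against 2.55 to 3.45 CPM, a difference of 0.95 ± 0.19 (edgeR adjusted p = 0.00809). None of these overlapped between transgenic and control libraries. The Src call was lost when any 1 of the 8 libraries was left out, with DESeq2, with limma-voom and without the 90 min libraries. The Dpf2 call was lost without either knockout library of 120 min, with DESeq2 and without the 90 min libraries, and the Tead1 call under those last 2 settings.

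The intron peak of Ywhag, which encodes a 14-3-3 protein (chr5:135912935-135913800), stood at 8.85 ± 0.418 CPM against 5.08 ± 0.227 CPM (SD, n = 4), and a difference of 0.80 ± 0.15 (edgeR adjusted p = 0.00216). The Zfp618 intron peak (chr4:63118791-63119778) ran from 6.42 to 10.7 against 4.18 to 6.03 CPM, a difference of 0.77 ± 0.16 (edgeR adjusted p = 0.0103). The intron peak of Apod, which encodes the lipid carrier apolipoprotein D (chr16:31299422-31301637), was the most open of the higher peaks. It ran from 24.5 to 36.4 CPM in the transgenic and from 17.9 to 25.7 CPM in the control libraries, so the groups overlapped, and the difference was 0.60 ± 0.10 (edgeR adjusted p = 1.88e-04). Ywhag and Apod lost their calls without either knockout library of 120 min, with DESeq2 and without the 90 min libraries. Zfp618 lost its call without any 1 of the knockout libraries, without either wild type library of 120 min and with DESeq2.

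Of the 22 peaks, 20 lay outside promoters, as did 83.0% of all tested peaks. Among those between genes, the peak 59398 bp from the start of Bbs4, a subunit of the BBSome of cilia (chr9:59385791-59388031), ran from 15.4 to 19.1 CPM against 8.93 to 11.5 CPM, a difference of 0.80 ± 0.12 (edgeR adjusted p = 2.77e-06). The peak nearest 4930488N15Rik, a long intergenic noncoding RNA gene, lay 107500 bp from its start and was 1.56 ± 0.26 higher (edgeR adjusted p = 1.85e-04). Those nearest Gm15516, AC154542.1, Gm44181 and Gm48675 were higher by 1.17, 1.06, 0.95 and 0.70 (log2). A peak at the end of Pvalb, which encodes the calcium buffer parvalbumin, was higher by 1.17 ± 0.24 (edgeR adjusted p = 0.0136). Pvalb lost its call without any 1 of the knockout libraries, without either wild type library of 120 min, with DESeq2, with limma-voom and without the 90 min libraries. Without either knockout library of 90 min the Gm15516 call was lost, and without either of 120 min that of Gm48675.

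The 3 lower peaks were an intron of Zfhx3, the gene of a homeobox transcription factor, a peak 15162 bp from Tle7, and an intron of 2410141K09Rik. Zfhx3 (chr8:108665924-108666639) ran from 2.85 to 4.39 CPM in the transgenic and from 5.77 to 9.76 CPM in the control libraries, a difference of -0.86 ± 0.17 (edgeR adjusted p = 0.00863). Tle7 (chr8:110122777-110125132) ran from 7.45 to 13.2 against 11.5 to 19.9 CPM, with an overlap, a difference of -0.69 ± 0.12 (edgeR adjusted p = 2.41e-04). The third (chr13:66418163-66419530) was at 6.42 and 5.32 CPM in the wild type transgenic line against 12.4 and 12.05 CPM, and at 12.5 and 15.2 against 20.3 and 16.1 CPM in the knockout background, a difference of -0.65 ± 0.12 (edgeR adjusted p = 0.0022). Zfhx3 lost its call without any 1 library of 90 min, Tle7 without either knockout library of 120 min, and 2410141K09Rik without either knockout library of 90 min or any wild type library.

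In the fit by background, 18 of the 22 peaks were called in the knockout background and 6 in the wild type background. Both counts include the 3 called in each background, and 1 peak was called in neither. In 1 peak, on an unplaced contig, the difference between backgrounds was itself called, with a negative value in the knockout and a positive one in the wild type background. Leaving out a wild type library of 90 min, and with it that pair, raised the count of calls to 39. Whichever library was left out, 13 to 17 of the 22 stayed called. Leaving out the libraries of 90 min lowered the count to 11, of which 9 were among the 22. DESeq2 called 3, and a fit with the promoter share as a covariate called 49.

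The remaining times were not in the fit. Without Firre and the 2 peaks on the unplaced contig, 16 higher peaks remained. Their median difference at 0 min was 0.13 (log2) in the knockout and 0.08 in the wild type background. It was 0.92 and 0.53 at 30 min, 1.05 and 0.87 at 90 min, 1.29 and 0.87 at 120 min, and 0.91 and 1.01 at 150 min. At 60 min it was 0.58 in the knockout background. In 11 of the 16 the transgenic library was higher in all 5 pairs at 30, 60 and 150 min, against 6.28% of the 8716 tested peaks that were higher in all 4 pairs at 90 and 120 min. The 8716 were chosen by sign alone and the 16 by a called difference, so the sets are not matched in the size of their differences. All times of a line share that line, so these pairs are not independent.

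The same 16 peaks were set against each line's own library at 0 min, as a description, since their late levels chose them. The mean of 90 and 120 min was higher in 15 of the 16 peaks in the knockout transgenic line and in 16 in the wild type transgenic line, with medians of 0.85 and 0.72 (log2). The knockout control was above its own 0 min library in 5 of 16 and the wild type control in 4, against 49.7% and 51.3% of all tested peaks. Rapgef4 stood at 5.32 and 3.72 CPM at 0 min in the knockout and wild type transgenic lines, and at 2.97 and 3.73 CPM in their controls. At 30 min it stood at 11.8 and 7.31 CPM in the transgenic lines, and at 150 min at 19.2 and 16.0 CPM. The 3 lower peaks were already lower in both backgrounds at 0 min.

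**Figure D2:**
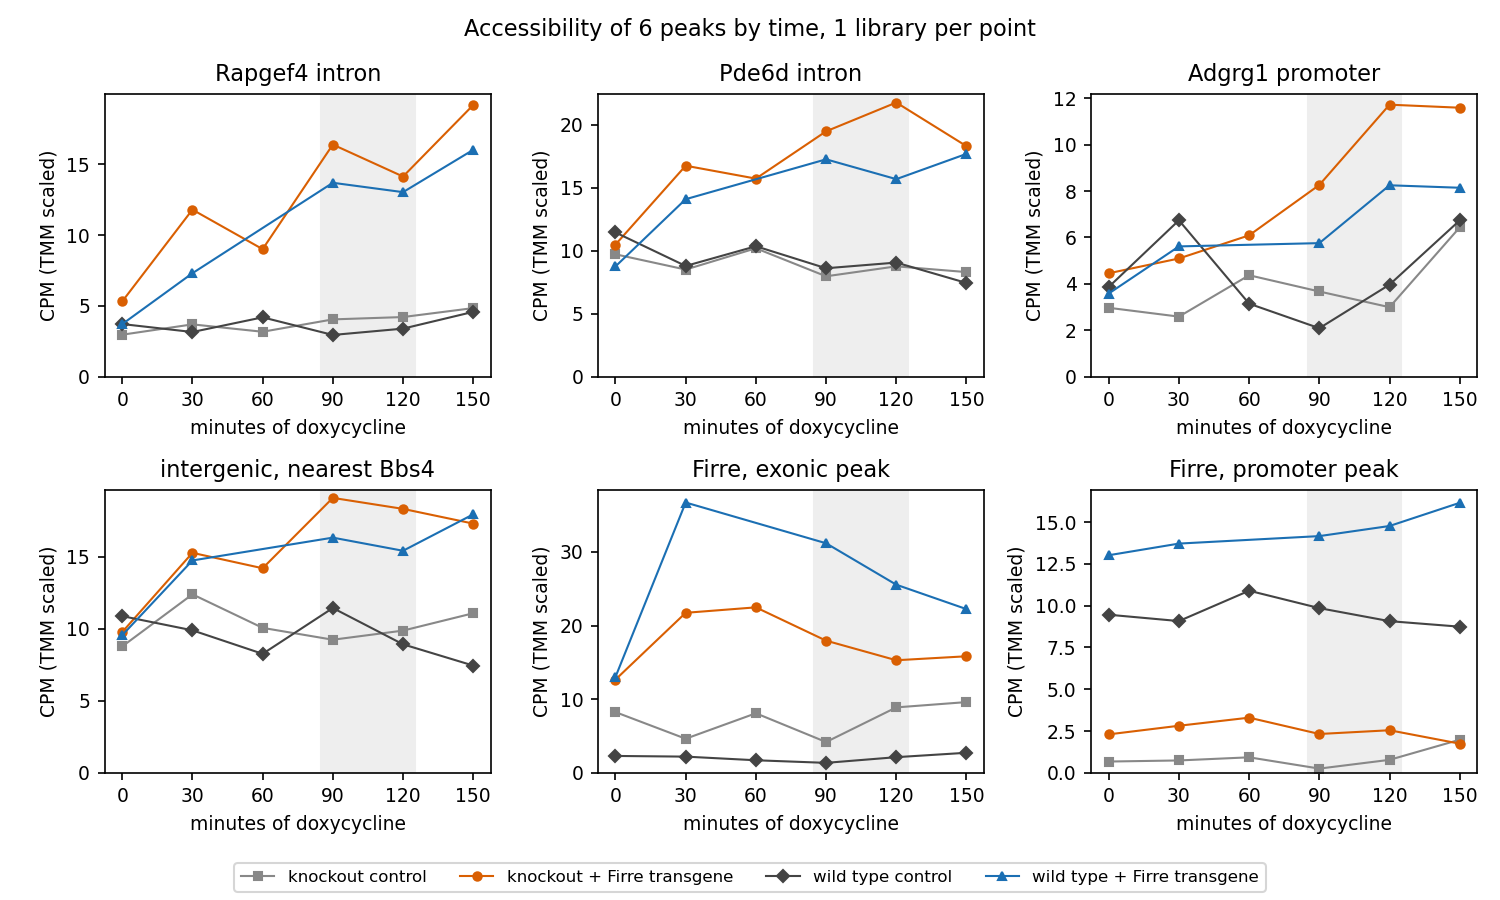
Level of 6 peaks (y axes, CPM from 0) over minutes of doxycycline (x axes), 1 point per library and 1 line per cell line, with 90 and 120 min shaded. The line of the wild type transgenic cells passes over 60 min, which was not analysed. Rapgef4 at 0 min is at 5.32 against 2.97 CPM in the knockout and 3.72 against 3.73 CPM in the wild type lines, and the exonic Firre peak is at 12.7 against 8.24 CPM and 13.0 against 2.29 CPM.

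The change of the difference from 0 min to 90-120 min, tested with 12 libraries, was called in 1 peak, 0.000772% of those tested. This was the Pde6d peak, whose difference grew by 1.25 ± 0.23 (log2, SE; edgeR adjusted p = 0.0329). It stood at 10.5 and 8.77 CPM at 0 min in the knockout and wild type transgenic lines and at 9.73 and 11.5 CPM in their controls. The call was lost when either 0 min library pair or a knockout library was left out, with DESeq2, with no filter and with the 90 min libraries left out. For Rapgef4 the change was 1.54 ± 0.34 and for Apod 0.84 ± 0.19, and neither passed the test (edgeR adjusted p = 0.48 for both). At 0 min itself 0 peaks were called by edgeR, with 5227 at an unadjusted p under 0.05, which is 4.04% of those tested. Both tests are of the mean of the backgrounds, so a difference in 1 background alone counts largely as error. The exonic Firre peak, at 13.0 against 2.29 CPM in the wild type lines at 0 min, was not called. No test at 0 min was run within a background, so lines may have differed there before doxycycline.

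No peak was called for the difference between 120 and 90 min, which is 0.0% of those tested. edgeR gave 4409 peaks at an unadjusted p under 0.05 (3.40%), DESeq2 called 0 with 49 at an unadjusted p under 0.05, and limma-voom called 0. The standard error of a tested peak had a median of 0.40 (log2) for this contrast, against 0.19 for the mean of the 4 pairs.

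In the knockout background, where by the labels the transgene is the only intact source of Firre, 241 peaks were called, 93 higher (0.0718% of tested peaks) and 148 lower (0.114%). With the endogenous gene present beside the transgene, 41 were called, 33 higher (0.0255%) and 8 lower (0.00618%). Firre RNA itself was not measured here. The share of tested peaks at an unadjusted edgeR p under 0.05 was 9.81% in the knockout and 5.96% in the wild type background. Only 6 peaks were called in both, 2.49% of the knockout and 14.6% of the wild type calls. Of these, the exonic peak of Firre, Rapgef4, Adgrg1 and Pde6d were higher in both backgrounds. The promoters of Gm15287 and Sp4, the latter a relative of the transcription factor SP1, were lower in the knockout background (-0.33 and -0.30 on the log2 scale) and higher in the wild type background (0.42 and 0.37).

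Across all tested peaks the differences of the 2 backgrounds, which share no library, had a Pearson correlation of -0.02, given as a description over peaks that are not independent. The sign was the same in 47.9% of tested peaks, in 35.3% of the knockout calls and in 34.1% of the wild type calls. Rapgef4 was alike in both, at 1.87 ± 0.20 in the knockout and 2.08 ± 0.21 in the wild type background, and the difference between them was not called. Of the 16 higher peaks, 14 had the larger difference in the knockout background, but in none of the 16 was the difference between backgrounds called.

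**Figure D3:**
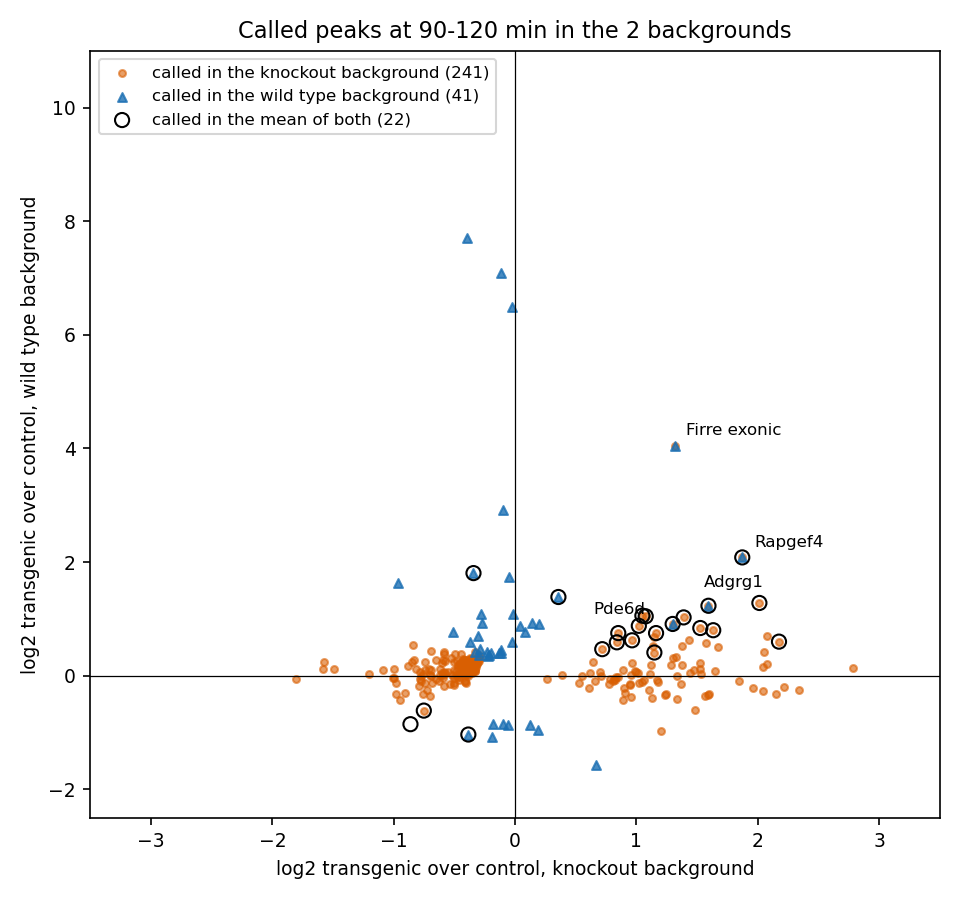
Difference of transgenic over control lines at 90-120 min in the knockout (x axis, log2) and the wild type background (y axis, log2), for peaks called in the knockout background (orange circles, 241), in the wild type background (blue triangles, 41) and in the mean of both (black rings, 22). Most orange and blue points lie near 0 on the other axis, and the exonic Firre peak, Rapgef4, Adgrg1 and Pde6d lie high on both.

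The knockout calls that were lower were promoters in 76 of 148, 51.4% against 17.0% of all tested peaks. Lemd1, the gene of a LEM-domain protein, stood at 19.4 and 22.8 CPM at 90 and 120 min in the transgenic line and at 36.2 and 30.3 CPM in the control, a difference of -0.65 ± 0.12 (edgeR adjusted p = 2.83e-04). The promoter of Prkca, which encodes protein kinase C alpha, stood at 25.4 and 23.6 against 37.4 and 34.4 CPM, a difference of -0.55 ± 0.11 (edgeR adjusted p = 0.00348). With the promoter share as a covariate the Prkca value became 0.52, in a fit where this share nearly follows the transgene within a background. Transgenic libraries were below control libraries in both peaks, as the naming rule requires. Ipo4, an importin, was lower by 0.88 ± 0.20 in the same background and the promoter of the microRNA gene Mir135b by 0.77 ± 0.19. At 0 min Lemd1 was at 21.7 and 25.5 CPM and Prkca at 27.9 and 33.1 CPM in the transgenic and control lines.

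The lower calls were also set against each line's own start. The late levels that chose these peaks enter this comparison, so its counts are a description. In 144 of the 148 the knockout control at 90-120 min was above its own 0 min library, with a median of 0.43 (log2), against 49.7% of all tested peaks. The knockout transgenic line was above its own 0 min library in 113 of the 148, with a median of 0.23. Of the lower calls, 43 lay on chromosome 11, 0.434% of the 9899 peaks tested there, against 0.114% of all tested peaks. The median difference of the peaks of chromosome 11 was -0.06 at 90 min and -0.04 at 120 min in the knockout background, and -0.07 at 0 min.

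Among the 93 higher calls of the knockout background, 80 lay outside promoters, 86.0% against 83.0% of all tested peaks. The Tgfb3 intron peak, in the gene of a transforming growth factor, stood at 2.07 and 2.42 CPM against 0.380 and 0.555 CPM, a difference of 2.22 ± 0.54 (edgeR adjusted p = 0.032). The promoter peak of Dvl1, which encodes a transducer of Wnt signals, stood at 1.81 and 3.31 against 0.760 and 0.666 CPM, a difference of 1.85 ± 0.46 (edgeR adjusted p = 0.0423). At 0 min the same Dvl1 peak was at 2.01 CPM in the transgenic and 1.76 CPM in the control line, and Tgfb3 at 1.87 and 1.08 CPM. Peaks near Gm3434, Ddhd2, Sh3d19, Gm1943 and Fam216a were higher by 2.08 to 2.78 (log2), each with under 4 CPM in every knockout library at 90 and 120 min. The late levels that chose the 93 peaks enter the comparison with each line's own start, so its counts are a description. The control line was above its own 0 min level in 16 of the 93, with a median of -0.36, against 49.7% of all tested peaks. The transgenic line was above its own in 74, with a median of 0.35, against 49.9% of all tested peaks.

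The wild type calls were led by differences that were present before doxycycline. A mitochondrial peak at mt-Tr, a transfer RNA gene (chrM:9384-9894), stood at 1180 and 1626 CPM in the transgenic line at 90 and 120 min and at 1279 CPM at 0 min, against 6.90, 6.24 and 6.73 CPM in the control. In the 2 other mitochondrial peaks tested 0 differences were called in this background. The peak near Gm18508 had 0 counts in all 6 libraries of the wild type control and 1.44 to 2.79 CPM in the 5 of the transgenic line, at least 9.73-fold higher at 90-120 min against a floor of 3 counts over the 2 control libraries. The 7 tested peaks of an unplaced contig summed to 30.6 and 45.8 CPM in the transgenic line and to 13.1 and 10.2 CPM in the control, with 30.1 against 12.3 CPM at 0 min, and 5 of them were called higher.

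Of the 8 lower calls of the wild type background, 6 lay on chromosome 13 between 66263176 and 66419530, among pseudogenes and predicted genes. Their differences ran from -1.07 to -0.84 (log2). All 18 tested peaks of this stretch were lower in the wild type transgenic line at 0 min, with a median of -0.81, and the median at 90-120 min in the fit was -0.85. Their median in the knockout background was -0.30 at 0 min, -0.10 at 90 min and -0.04 at 120 min.

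Promoters among the higher calls of the wild type background numbered 14 of 33, 42.4% against 17.0% of all tested peaks. Btaf1, whose protein removes the TATA-binding protein from DNA, stood at 42.7 and 37.6 CPM at 90 and 120 min against 23.0 and 24.5 CPM, a difference of 0.77 ± 0.11 (edgeR adjusted p = 2.47e-08). Agfg1, which encodes a protein with an ArfGAP domain, stood at 32.6 and 37.5 against 23.8 and 26.6 CPM, a difference of 0.48 ± 0.11 (edgeR adjusted p = 0.0473). Both were also higher at 0 min, Btaf1 at 38.5 against 23.6 CPM and Agfg1 at 30.1 against 26.2 CPM. Cd59a, a complement regulator, was higher by 1.08 ± 0.22 and Map1b, a microtubule-associated protein, by 0.77 ± 0.18 in this background. Rapgef4, at 13.7 and 13.0 against 2.96 and 3.40 CPM, had libraries of 3.72 and 3.73 CPM at 0 min.

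The difference of the contrast between backgrounds (knockout minus wild type) was called in 324 peaks, 49 with a positive value (0.0378%) and 275 with a negative one (0.212%). Promoters made up 207 of the 275, or 75.3%, against 17.0% of tested peaks. The median difference of the 22024 tested promoter peaks was -0.05 in the knockout and 0.04 in the wild type background, and that of all other peaks was 0.02 and -0.01. Map1b had the value -1.28 ± 0.26 and Lemd1 -0.93 ± 0.17 for this difference (edgeR adjusted p = 0.00237 and 2.76e-04).

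The share of counts in promoter peaks moved the same way as these calls, but it is taken from the same counts and gives no separate evidence. It was 42.3% and 41.8% in the knockout transgenic line at 90 and 120 min against 43.1% and 42.7% in its control, and 39.8% and 41.0% in the wild type transgenic line against 38.8% and 39.7%. With this share as a covariate, 44 peaks were called in the knockout background, 41 in the wild type background and 42 for the difference, of which 3, 1 and 1 were among the original calls. Within each background the share differed between transgenic and control libraries in the same direction and by a similar amount in both pairs. Covariate and transgene can thus hardly be separated in these fits, and the part of the share in the result was not tested further. RefSeq promoter windows inside the lower knockout calls had a median GC content of 69.0% (73 windows), against 62.0% over the 13174 windows inside tested promoter peaks.

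**Figure D4:**
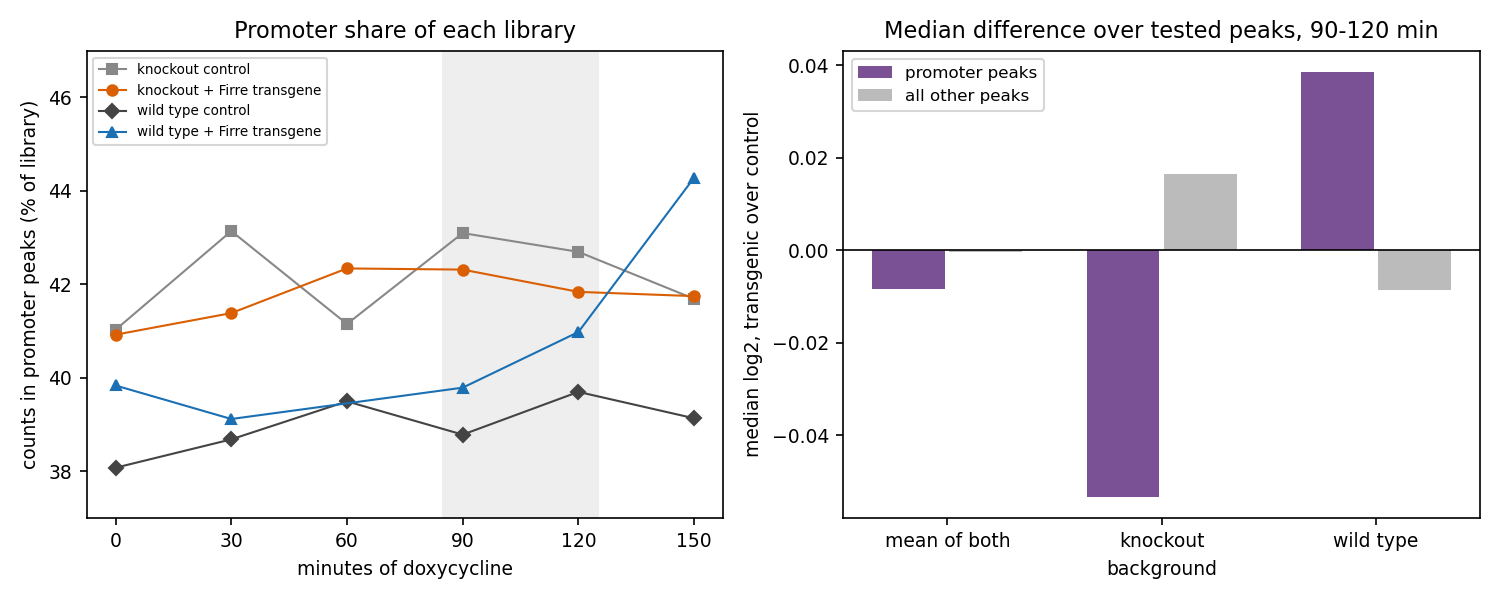
Left, counts in promoter peaks as a percent of each library (y axis) over minutes of doxycycline (x axis), 1 point per library, with an axis that does not start at 0. Right, median difference of transgenic over control lines (log2) over the tested promoter peaks and over all other peaks, for the mean of both backgrounds and for each. At 90 and 120 min the transgenic line lies below its control in the knockout and above it in the wild type background, and the promoter medians have the same signs. Both panels are drawn from the same counts.

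The calls within 1 background rested on few libraries. Without any 1 of the 4 knockout libraries, and so with 1 pair left whose spread was taken from the other background, 3 or 4 peaks were called in the knockout background and 3 to 5 for the difference between backgrounds. Without a wild type library the knockout count was 1033 to 1036. The wild type count was 142 or 143 without a library of 120 min, 29 without one of 90 min, and 23 without any knockout library. DESeq2 called 1, 3 and 1 in the knockout background, in the wild type background and for the difference.

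Scaling moved the balance of higher and lower calls too. The 93 higher and 148 lower calls of the knockout background became 106 and 95 with total counts and 80 and 55 with loess offsets, which adjust by abundance. The 33 and 8 of the wild type background became 28 and 17 with loess offsets, and for the difference 49 and 275 became 63 and 173 with total counts and 31 and 40 with loess offsets. The mt-Tr peak was the 1 wild type call kept under every alternative, and no knockout call was kept under all of them.

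The gene lists gave few calls. Of 254 distinct promoter peaks in 18 of the 19 lists, 0 were called in the mean of both backgrounds, against 2 of the 22024 tested promoter peaks. The knockout background had 1 higher and 1 lower call among them, against 13 and 76 of all promoter peaks, and the wild type background had 0, against 14 and 1. Fosl1, an AP-1 subunit of the immediate early list, was higher by 0.62 ± 0.15 in the knockout background (edgeR adjusted p = 0.0423). Axin2, a feedback inhibitor of Wnt signalling, was lower there, at -0.43 ± 0.09 (edgeR adjusted p = 0.00319). Axin2 and Stat3, the transcription factor downstream of LIF, were the 2 list members called for the difference between backgrounds, at -0.53 ± 0.13 and -0.60 ± 0.13. Over all 22024 promoter peaks, 9 had a positive and 207 a negative call for this difference.

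Of the 18 lists, 14 had a median below 0 in the knockout background, and all promoter peaks had -0.05. For the wild type background 1 list did, and all promoter peaks had 0.04. This was the list of Wnt pathway targets (6 peaks), with the lowest median of the lists in both backgrounds, -0.23 in the knockout and -0.10 in the wild type. Naive pluripotency genes (15 peaks) had medians of -0.06 and 0.12 in the knockout and wild type backgrounds, heat shock genes (9) -0.03 and 0.16, Polycomb genes (21) -0.09 and 0.09, and imprinted genes (15) -0.15 and 0.04. The Firre partner and chromatin architecture genes (19) had -0.05 and 0.11. Of the 5 genes known for nuclear contact with the Firre locus, 3 had a promoter peak, 6 peaks in all, with medians of 0.08 and 0.02 and 0 calls. Fibroblast markers (11) had -0.04 and 0.03 and germ layer and trophoblast markers (20) -0.02 and 0.04, with 0 calls.

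**Figure D5:**
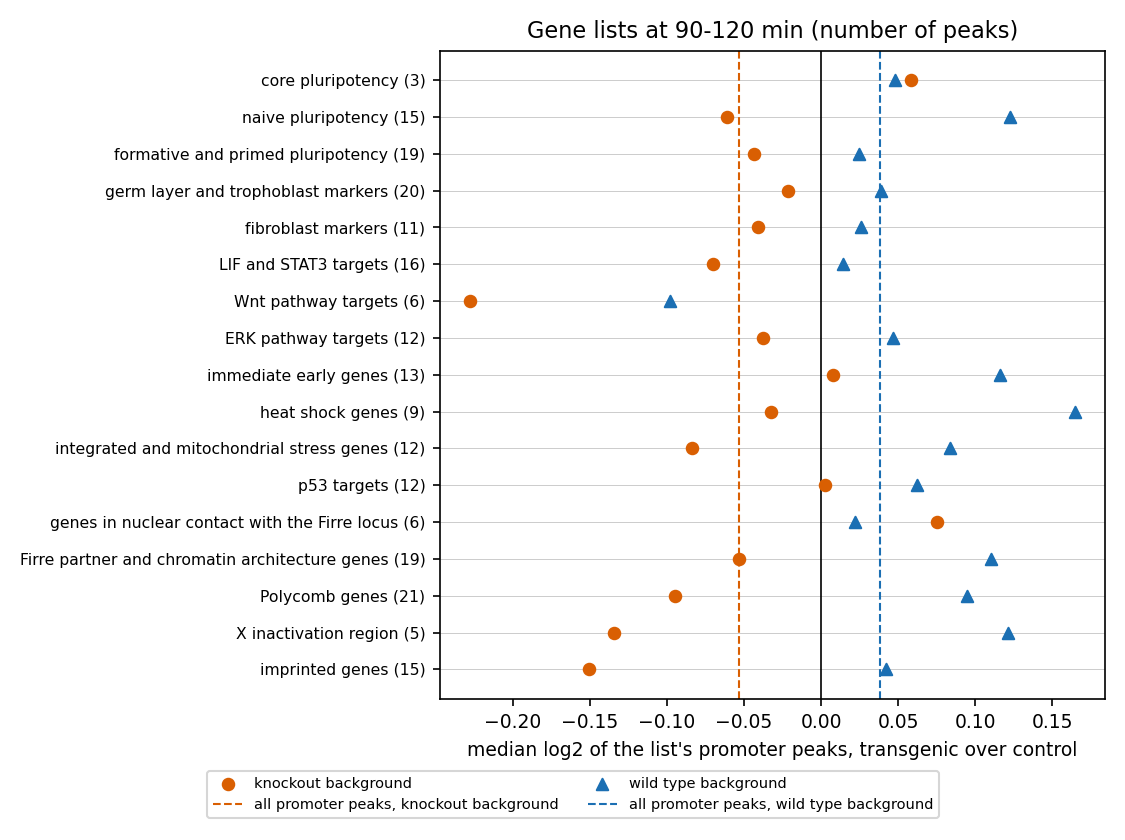
Median difference of transgenic over control lines at 90-120 min (x axis, log2) over the promoter peaks of 17 gene lists (y axis, number of peaks in brackets), in the knockout (orange circles) and the wild type background (blue triangles). Dashed lines mark the medians of all tested promoter peaks, -0.05 and 0.04. Most orange points lie left of 0 and most blue points right of it.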

How the data were processed

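The authors' deposited table holds raw counts per consensus peak and library, whole numbers with no normalization, per the file headers and values. Coordinates are on mm10, and MACS2 2.2.7.1 and featureCounts are listed as software, per the submitters' processing notes. No aligner, duplicate filter or transposase shift of reads is named (not given in the sources used here). Peak positions, nearest genes and classes come from the deposited annotation of 145143 peaks. Counts of 23 libraries were used, and the wild type transgenic line at 60 min was not analysed here.

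Counts were scaled by TMM and tested with edgeR 4.0.16 (glmQLFit, robust, glmQLFTest) in R 4.3.3, on 129515 peaks kept by filterByExpr (minimum count 10, lines as groups), with Benjamini-Hochberg adjustment over all of them and an adjusted p of 0.05 or less called. The model held a term for each pair of background and time and the transgene, with 3 residual degrees of freedom for the mean, 2 for each background and for the differences, and 4 for the change from 0 min. In the fits by background the median of the estimated prior over peaks was infinite, so that a typical peak took the spread of its abundance trend. In the fit of the mean it was 176.8 degrees of freedom against 3 residual, so that a typical peak took most of its spread from that trend. Standard errors were derived from the F statistic. CPM values are on TMM library sizes of all 23 libraries. Peaks within 1000 bp of an annotated start, or annotated as promoter, counted as promoter peaks.

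Named were, per comparison and direction, up to 6 promoter peaks and up to 6 peaks elsewhere that were called with the largest difference, from those with a mean of at least 1 CPM and the same sign in every pair, 1 peak per gene. Where fewer than 3 were called, the 3 peaks with the smallest p were taken as not passed. Always named were the Firre peaks, the called members of the 19 gene lists and the intronic peaks of Pde6d, Apod and Rapgef4. All 22 peaks called in the mean were named, those outside this rule after their values were seen. The comparison, the lists and the rule were chosen with earlier results of these data known. Alternatives were RLE scaling, total counts, loess offsets, DESeq2 1.42.0, no filter, a minimum count of 30, no pair term, all libraries, the promoter share as a covariate and leaving out each library. limma-voom (limma 3.58.1) and leaving out the 90 min libraries were chosen after seeing the data. The fits were tested on simulated data. Promoter sequences are those of RefSeq, build GRCm38.p6. The values of 1 gene list are not reported here, though its peaks are in the counts over all lists.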

Additional observations from a re-analysis of the deposited data

Results flagged for a closer look

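Among 50 groups of 4 libraries examined (library measures and the levels of the peaks named for the mean), 3 had 1 library far from the other three; chance flags about 1 in 20. The total count of the wild type transgenic library at 90 min was 14977148. The Ywhag intron peak was at 5.42 CPM in the wild type control at 90 min, above the other controls, and the Zfhx3 intron peak was at 9.76 CPM in the knockout control at 90 min, also above the others.

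The contrast differed between the backgrounds in 324 peaks by edgeR's quasi-likelihood test of the difference itself, and the largest by the naming rule are given here as log2 differences, knockout minus wild type. More positive in the knockout background were promoter peaks of Gm43001 (2.18), Gkap1 (1.86), Adgrg3 (1.78), Tigit (1.67), Gm49767 (1.52) and Slc9a8 (1.32). Other such peaks were those nearest or in Eqtn (2.73), 1810013L24Rik (2.61), Gm47176 (2.56), Drp2 (2.37), Foxn1 (2.28) and Iars2 (2.25). More negative in the knockout background were promoter peaks of mt-Tr (-8.11), Olfr982 (-1.43), Map1b (-1.28), Lemd1 (-0.93), Gm15229 (-0.85) and Agfg1 (-0.76). Other such peaks were those of Gm18508 (-7.19), the Firre exon (-2.73), an unplaced contig (-2.59), Dvl3 (-2.25), Pdk4 (-2.22) and Scn1a (-1.72). The values of Gm18508 rest on 0 counts in the wild type control and depend on the prior count.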

How the results depend on the processing

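The 22 peaks of the mean kept their direction under every alternative that tested them, and the count stayed within 18 to 24 under RLE scaling, total counts, loess offsets, both filters, no pair term, all libraries and limma-voom. It was 3 with DESeq2, 49 when the fit held the promoter share and 11 without the 90 min libraries, and 18 to 39 when 1 library was left out, of which 13 to 17 were among the 22. The 241 calls of the knockout background became 135 with loess offsets, 1 with DESeq2, 96 without the pair term (the replicate block), 111 with all libraries and 44 with the promoter share, and 3 to 1036 when 1 library was left out. The 41 of the wild type background became 3 with DESeq2, 69 with the stricter filter and 65 with limma-voom, and 23 to 143 when 1 library was left out. For the difference between backgrounds the 324 became 71 with loess offsets, 1 with DESeq2, 106 without the pair term, 96 with all libraries and 42 with the promoter share, and 3 to 1142 when 1 library was left out. The difference between times had 0 to 2 calls when 1 library was left out, and 0 under every other alternative. The change from 0 min had 2 with loess offsets and with the promoter share, 0 with DESeq2, without a filter and without the 90 min libraries, and 0 or 1 when 1 library was left out. The causes were not tested.

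Without the pair term, in a paired design by background and time rather than by culture, the mean had 24 calls, the wild type background 28, and the change from 0 min 1. With the promoter share as a covariate, which nearly follows the transgene within a background, named peaks changed sign. Those of the knockout background were Krt84 (-2.72), Adgrg1 (-0.25), Fbp2 (-1.29), Fam216a (-3.03), Prkca (0.52) and Gm45218 (1.03). For the wild type they were 1 peak of the unplaced contig (-1.27), Cblc (1.61), 2410141K09Rik (0.82) and C330022B21Rik (2.63), and for the difference Gm49767 (-5.17), Drp2 (-5.13), a contig peak (2.31) and Scn1a (4.93). Src was called under 7 and Pvalb under 9 of the 18 alternatives that tested them, since the stricter filter removed both, and Firre under 8 of 19. Rapgef4, Pde6d and Adgrg1 were called under all 19.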
